A study of Homo sapiens with 4 samples.

Results

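The 413 regions described here are the longest stitched stretches of H3K27Ac occupancy in control MOLM13 cells. They were selected on the control peak list alone. Control peaks that lay close to each other, within the gap that is usual in stitching super enhancers, were merged into 24668 regions, and a region was kept when peaks covered at least 100 kb of it. Of the 413 clusters, 347 lie outside chromosome 8 and 66 lie on chromosome 8, which is given apart except where stated. The covered length in control therefore chose the clusters and is a description. The covered length of the same clusters in the list of the treated cells did not enter the choice.

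MOLM13 is an established human AML cell line with a rearranged MLL1 gene (MLL1-r). The study asked what the menin inhibitor SNDX-50469 does to active enhancers in such cells. H3K27Ac was profiled by ChIPmentation, in which Tn5 transposase tags the immunoprecipitated chromatin. The control library carries the treatment label None, and its treatment description names DMSO as the arm without inhibitor. The other library is from cells exposed to SNDX-50469 at 500 nM for 16 h. There is 1 library per condition, from 1 cell line, and the 2 input samples were not analysed here. No difference between the conditions could be tested, and no p-value is given.

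Acetylation of lysine 27 on histone H3 marks active enhancers and promoters. Long runs of closely spaced active enhancers, often called super enhancers, tend to lie near genes that define a cell's identity, such as its lineage transcription factors. In leukemia with MLL1-r, a fusion protein made from MLL1 (MLL1-FP) binds menin and drives genes of the HOXA, MEIS1 and MEF2C program, and menin inhibitors release it from chromatin.

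The 2 peak lists differ widely in size. The control list holds 245875 peaks over 224 Mb, and the SNDX-50469 list holds 54061 peaks over 29.4 Mb. The weakest peak listed had a fold over background of 2.66 in control and 3.46 after SNDX-50469, and the smallest −log10 p was 2.68 and 3.93. Read totals are not in these lists, so the depth of either library is unknown. A short covered length after SNDX-50469 and a library in which fewer weak peaks could be called cannot be told apart, and every covered length below is a length that was called, not an amount of acetylation. As a check of the cell type, all 10 myeloid and AML markers had a control peak, 7 of them with a fold over 5. Each marker was counted over the gene and 5 kb on either side. Markers of other cell types were not free of control peaks. Of the erythroid markers 2 of 5 had one, with a fold of at most 4.98 (KLF1, which lies in a cluster), while HBB and HBA1 had none. Of the liver markers 1 of 3 had a peak (APOA1, 2109 bp), while ALB and TTR had none. All 4 B cell markers had one, with a fold over 5 at CD79A (6.45). Peaks were present at 2 of 4 fibroblast markers, among them PDGFRB with 36437 bp and a fold of 5.25 in a cluster, and at 3 of 4 epithelial markers, with a fold of at most 3.97. All 6 T cell markers had a control peak, of which 5 had a fold of at most 4.91. The other was TRAC, the constant part of the T cell receptor alpha chain, with a fold of 11.0 in the cluster that also holds DAD1.

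The clusters hold both distal peaks and promoters, and 6 promoters of list genes are shown as examples of starts with and without a treated peak. RefSeq promoter sequences of GRCh38.p14 were used, with the outermost start listed there for each gene, and each line gives the 250 bases before that start. For RUNX1, IRF8, KDM2B and CDKN1A the listed start lies inside the annotated gene, downstream of its outermost end, and for MYB and CXCR4 it does not. Capitals mark the PU.1 motif GGAAGT, the RUNX motif TGTGGT, the C/EBP motif TTGCNNAA and the E-box CAGCTG on either strand. The motif AACNG of MYB is not marked, since 68.5% of all promoters hold it. The first 3 promoters were covered by peaks of both lists. They are RUNX1, a core blood transcription factor (chr21:34888700-34888949, minus strand), MYB, a factor of hematopoietic progenitors (chr6:135181058-135181307, plus strand) and CXCR4, a chemokine receptor (chr2:136118150-136118399, minus strand).
RUNX1: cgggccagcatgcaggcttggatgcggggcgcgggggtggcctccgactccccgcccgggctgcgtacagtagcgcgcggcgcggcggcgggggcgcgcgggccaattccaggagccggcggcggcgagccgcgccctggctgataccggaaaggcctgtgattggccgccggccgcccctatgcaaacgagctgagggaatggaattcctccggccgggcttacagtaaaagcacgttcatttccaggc
MYB: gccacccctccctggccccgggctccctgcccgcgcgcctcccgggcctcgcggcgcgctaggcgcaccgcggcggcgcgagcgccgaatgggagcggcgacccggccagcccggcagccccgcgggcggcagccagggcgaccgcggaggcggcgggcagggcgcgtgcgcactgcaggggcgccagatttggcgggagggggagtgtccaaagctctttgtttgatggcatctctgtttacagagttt
CXCR4: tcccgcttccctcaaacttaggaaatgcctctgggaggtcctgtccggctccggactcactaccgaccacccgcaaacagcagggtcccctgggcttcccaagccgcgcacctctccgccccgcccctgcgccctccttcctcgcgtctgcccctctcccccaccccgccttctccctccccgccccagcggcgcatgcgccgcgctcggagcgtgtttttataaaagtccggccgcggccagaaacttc
The other 3 were covered by a control peak over all 250 bases and by no SNDX-50469 peak. They are IRF8, a factor of monocytes and dendritic cells (chr16:85902580-85902829, plus strand), KDM2B, a histone demethylase (chr12:121581024-121581273, minus strand) and CDKN1A, the cell cycle inhibitor p21 (chr6:36678464-36678713, plus strand).
IRF8: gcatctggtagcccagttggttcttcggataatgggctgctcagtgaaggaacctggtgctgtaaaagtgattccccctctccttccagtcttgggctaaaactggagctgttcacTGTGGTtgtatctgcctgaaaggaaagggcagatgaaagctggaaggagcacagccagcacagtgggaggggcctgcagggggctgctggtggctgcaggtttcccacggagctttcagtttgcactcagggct
KDM2B: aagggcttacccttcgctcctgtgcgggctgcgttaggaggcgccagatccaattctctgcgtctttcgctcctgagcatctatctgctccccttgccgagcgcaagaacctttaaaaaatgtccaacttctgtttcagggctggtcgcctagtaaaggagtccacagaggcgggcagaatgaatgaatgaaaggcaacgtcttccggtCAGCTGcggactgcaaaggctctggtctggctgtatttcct
CDKN1A: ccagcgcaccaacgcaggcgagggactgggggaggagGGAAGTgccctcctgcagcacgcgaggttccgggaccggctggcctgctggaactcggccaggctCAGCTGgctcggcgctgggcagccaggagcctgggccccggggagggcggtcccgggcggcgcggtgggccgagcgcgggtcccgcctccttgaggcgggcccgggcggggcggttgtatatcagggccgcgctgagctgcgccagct
None of the 4 marked motifs was found in the 250 bases of RUNX1, MYB or CXCR4. The IRF8 window holds 1 RUNX motif, the KDM2B window holds 1 E-box, and the CDKN1A window holds 1 PU.1 motif and 1 E-box. The GC content of the windows was 71.2%, 75.6% and 68.0% for RUNX1, MYB and CXCR4, and 55.6%, 54.0% and 76.4% for IRF8, KDM2B and CDKN1A.

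Over all promoters outside chromosome 8 with a listed start, 1385 lie in a cluster, and control peaks covered the start of 1055 of these (76.2%). Of the 1055, 574 also had an SNDX-50469 peak over the promoter (54.4%, Wilson 95% interval 51.4 to 57.4, which covers counting error only). Outside the clusters, control peaks covered 5349 of 14458 starts (37%), and 2469 of these had an SNDX-50469 peak (46.2%, 44.8 to 47.5). The motif GGAAGT, to which the myeloid factor PU.1 binds, was present in 26.5% of the 574 promoters with peaks in both lists, in 21.6% of the 481 with a control peak only, and in 21.3% of all 15843 promoters of this length. The RUNX motif TGTGGT was present in 6.10%, 10.4% and 9.11% of the same sets. The longer PU.1 motif GAGGAAGT, which contains GGAAGT, was present in 3.48%, 2.91% and 2.1%. The C/EBP motif was present in 6.10%, 7.90% and 7.26%, and CAGCTG in 12.0%, 15.6% and 13.2%. AACNG was present in 72.0%, 62.2% and 68.5%. The median GC content was 64.8%, 64.4% and 62.0% in the 3 sets.

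The 347 clusters outside chromosome 8 spanned a median of 298 kb, from 124 to 1440 kb, and were made of a median of 113 control peaks, from 30 to 604. Peaks covered a median of 51.5% of the span, from 28.7% to 91.9%. The widest single peak of a cluster had a median width of 19.8 kb. Bodies of 1873 protein-coding genes overlap them, while 24 clusters hold no 5′ end of a protein-coding gene and 7 overlap no protein-coding gene at all. Regions of 50 to 100 kb outside chromosome 8, of which there are 575, spanned a median of 158 kb, were covered over 43.4% of the span and had a median widest peak of 11.7 kb. The highest fold within a cluster had a median of 8.31 against 6.84 in these shorter regions, where a longer region has more peaks from which the highest is taken.

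The threshold of 100 kb lies in a continuous range. Just inside it are the region of TBC1D8, RPL31 and NPAS2 with 100018 bp, of which the SNDX-50469 list covered 10.7%, that of CRYBG1 with 100136 bp (15.7%) and that of NRROS and PAK2 with 100508 bp (29.4%). Just outside it are the region of PAQR8 and MCM3 with 99875 bp (11.2%), that of FAM20C with 99785 bp (3.83%) and that of STIMATE with 99781 bp (3.63%). The next shorter region, with 99625 bp, is that of CD44, an adhesion receptor of leukemic stem cells, where the SNDX-50469 list covered 0.838%.

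Of the 30 longest clusters, 13 lie on chromosome 8 and 17 elsewhere. The longest outside chromosome 8 holds JARID2, a partner of Polycomb repressive complex 2. Control peaks covered 894508 bp of it and SNDX-50469 peaks 107535 bp, or 12.0%. The cluster of NR3C1, the glucocorticoid receptor, and ARHGAP26 followed in control with 754571 bp, while SNDX-50469 peaks covered 20509 bp of it, or 2.72%. These neighbours in rank thus differed in treated cover from 12.0% to 2.72% of control.

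The cluster of RREB1, a zinc finger transcription factor, and LY86, a surface protein of myeloid and B cells, had 671310 bp in control and 155930 bp after SNDX-50469 (23.2%). The cluster of DOT1L, the H3K79 methyltransferase on which MLL1-FP leukemia depends, had 574759 bp and 121028 bp (21.1%). It spans 36 protein-coding genes, and the DOT1L gene body itself had 47564 bp in control and 6850 bp after SNDX-50469 (14.4%). Among the other long clusters, those of CITED2, a coregulator that binds CBP and p300, and of RUNX1 had 7.66% and 6.19%. The cluster of FOSL2, an AP-1 subunit, had 6.01%, that of FOXO3 and SESN1, a stress-response factor and one of its targets, had 7.75%, and that of DLL1, a Notch ligand, had 8.48%. That of BRCA2 and FRY had 17.7%, that of ZFP36L2, an mRNA decay factor, 14.6%, and that of VEGFA, the vascular growth factor, 14.7%. SFMBT2, a Polycomb group gene, stood at 6.45%, CIITA, the activator of MHC class II genes, at 3.78%, NECTIN2 at 9.38% and GAS6 with RASA3 at 12.0%. The cluster of ELANE, neutrophil elastase, stood highest of the 17 with 428890 bp in control and 135641 bp after SNDX-50469 (31.6%). In 9 of the 17 the treated cover was under 10% of control, a mark that 84.5% of all 24668 merged control regions fell below, most of them short.

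**Figure D1:**
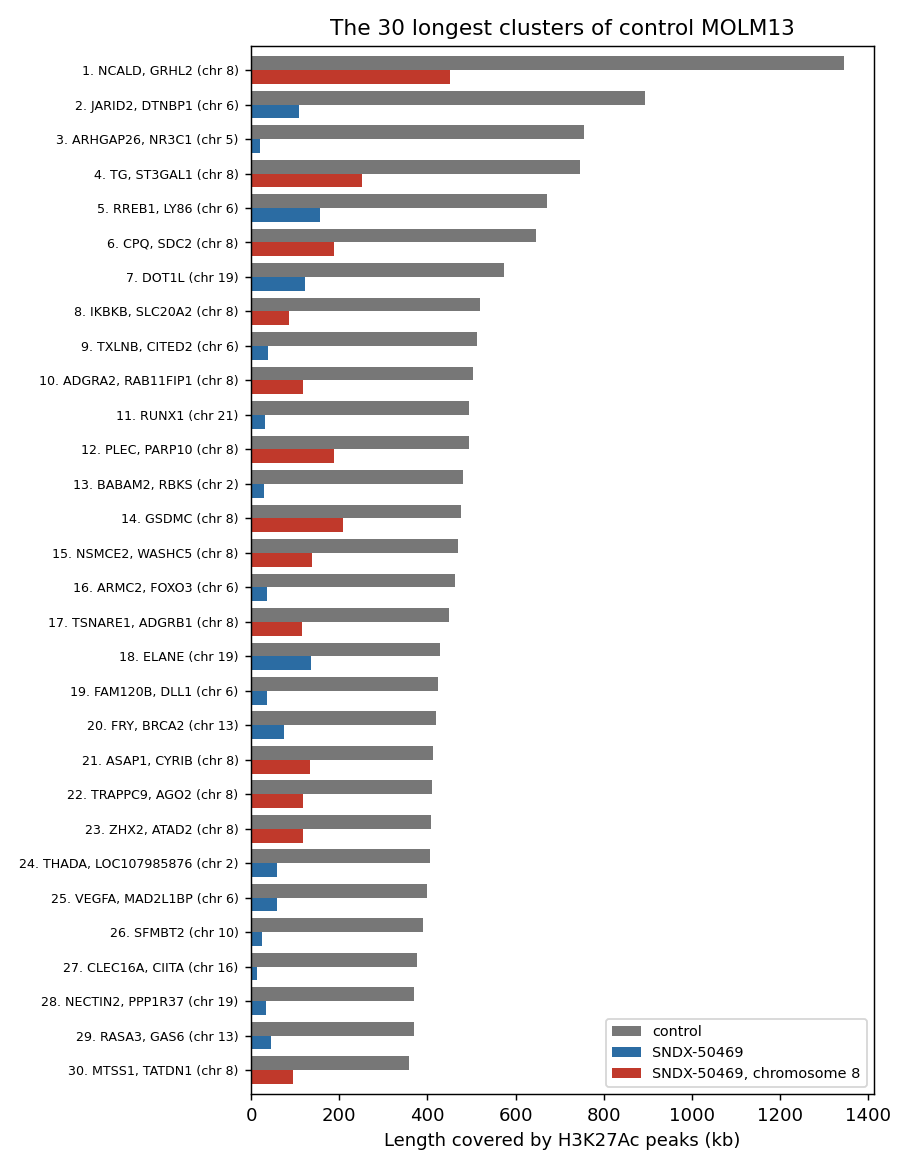
Length covered by H3K27Ac peaks, in kb, in the 30 longest control clusters, with control in grey and SNDX-50469 in blue, or in red on chromosome 8. The clusters are named by up to 2 of their genes. Treated bars are short beside control in all 30, from 2.72% in the cluster of NR3C1 to 43.5% in that of GSDMC on chromosome 8.

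Following SNDX-50469 treatment, peaks still lay in every cluster, but over a small part of the length. Outside chromosome 8 the clusters had 62.3 Mb of control cover and 7.16 Mb of SNDX-50469 cover, a summed share of 11.5%. The median cluster had 9.44%, with quartiles of 5.70% and 15.1% and a range from 0.232% to 65.0%. The treated cover was under 10% of control in 189 of 347 clusters (54.5%, Wilson interval 49.2 to 59.6). Against the 84.5% of all merged control regions, the share among the 575 regions of 50 to 100 kb outside chromosome 8 was 63.7%. Neighbouring regions are not independent, and the intervals cover counting error only. A share of 25% was exceeded in 19 clusters and of 50% in 1. Among the 575 regions of 50 to 100 kb these counts were 29 and 4. Among all 22913 merged control regions outside chromosome 8 they were 1188 and 341. The clusters held 27.8% of the length of the whole control list and 24.4% of that of the whole SNDX-50469 list.

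No cluster was left without an SNDX-50469 peak, whereas 12 of the 575 regions of 50 to 100 kb and 73.0% of all merged regions were. Longer regions offer more places for a peak, and length was not matched in this count. Among the clusters themselves the covered length did not order the treated share. The Spearman correlation of both was 0.05 over the 347 clusters, and the 100 longest clusters outside chromosome 8 had a median of 9.71%, the next 100 a median of 9.08% and the remaining 147 a median of 9.60%. Clusters share their libraries, and the values are a description.

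These percentages depend on how deep each list reaches. When the control list was cut to its strongest peaks, by −log10 p, until both lists had the same total length, 331 of the 347 clusters kept control cover, with a median of 29.8 kb over all 347. The shortened control list held 3632 peaks with a −log10 p of at least 10.03. The SNDX-50469 list was kept whole, with 54061 peaks down to 3.93. The lists are thus equal in length but not in cutoff. Over these 331 clusters, the SNDX-50469 cover had a median of 53.6% of the strong control cover, with quartiles of 34.4% and 77.4%, and was longer than it in 46 clusters. In sum the 347 clusters had 13.5 Mb of the strong control peaks, 45.8% of that shortened list, against 7.16 Mb or 24.4% of the SNDX-50469 list. With only those control peaks whose −log10 p reached the treated list's minimum, 68 clusters outside chromosome 8 reached 100 kb, and their median was 15.2%.

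Some clusters were low by both measures, which share the treated cover. The cluster of NR3C1 had 145 kb of strong control peaks, of which the 20.5 kb after SNDX-50469 is 14.1%. The cluster of RASA1, a Ras GTPase-activating protein, had 56.8 kb and 1.28 kb (2.25%), and that of DOCK2, a Rac activator of blood cells, had 37.1 kb and 2.34 kb (6.31%). Other clusters were at least as long after SNDX-50469 as in the shortened control list. That of ELANE had 115 kb and 136 kb (117%), that of MPO, myeloperoxidase, had 41.4 kb and 46.4 kb (112%), that of FOXO3 had 30.4 kb and 35.8 kb (118%), and that of ZEB2 had 20.7 kb and 36.0 kb (174%).

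**Figure D2:**
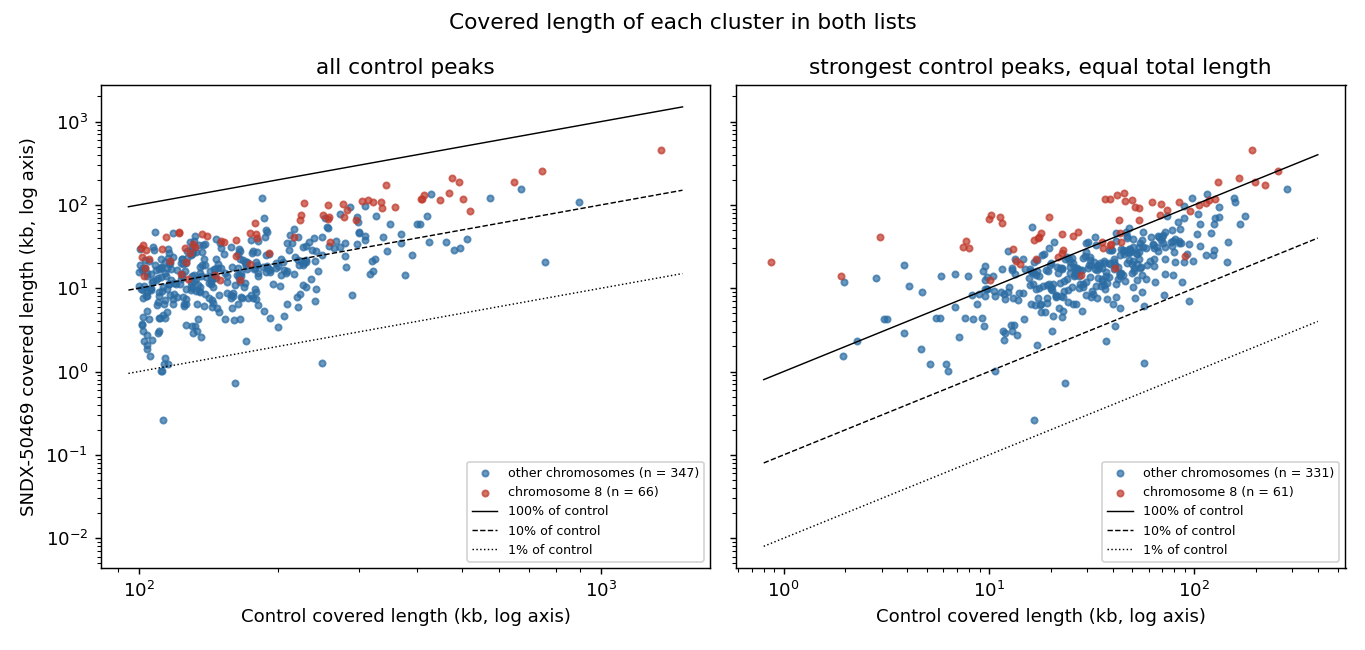
Each point is 1 cluster, with its SNDX-50469 covered length in kb against its control covered length in kb, both on log axes, for all control peaks on the left and for the strongest control peaks of equal total length on the right. Lines mark 100%, 10% and 1% of control, and the 21 clusters without strong control cover are not drawn on the right. On the left all points lie below the line of 100%, while on the right 46 clusters outside chromosome 8 and 46 on chromosome 8 lie above it.

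The gene lists below were chosen with earlier results of these data known, so their counts describe the clusters and are not independent support for them. Of all 20056 protein-coding genes, 2215 (11.0%) overlap one of the 413 clusters, and these counts include chromosome 8. Of the MLL1-FP target genes, a list that includes targets named by the study, 12 of 23 do (52.2%). Of the blood transcription factors 26 of 47 do (55.3%), of the cell cycle and survival genes 7 of 16 (43.8%), of the receptors and signalling genes 12 of 38 (31.6%), of the differentiation genes 4 of 13 (30.8%), and of the chromatin regulators 11 of 43 (25.6%). Of 12 microRNA genes and hosts 2 do, the host MIR142HG and MIR21 (16.7%). Long genes overlap a region more readily, and gene length was not matched.

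The MLL1-FP target genes, which the fusion protein keeps active in these leukemias, lie in 10 clusters outside chromosome 8 with a median treated share of 8.37%, against 9.44% over all 347, and 6 of the 10 were under 10%, against 54.5% of all 347. CDK6, a kinase of the G1 phase, had the lowest share. Its cluster was covered over 187 kb in control and over 5.31 kb after SNDX-50469 (2.84%). Within it, the strongest treated peak lay over the 5′ end. The cluster of JMJD1C, a histone demethylase family gene, and REEP3 had 242 kb and 9.75 kb (4.03%). PBX3, a homeodomain partner of the HOXA and MEIS1 proteins, had 113 kb and 4.73 kb (4.19%), and its widest SNDX-50469 peak also lay over its 5′ end, at 3.02 kb. MEF2C, a MADS-box factor of the leukemic program, had 121 kb and 7.81 kb (6.46%).

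BAZ2B, a bromodomain protein, had 143 kb and 11.3 kb (7.87%), and BCL2, the survival factor, had 230 kb and 20.4 kb (8.87%). In the BCL2 cluster the gene body kept little, with 119857 bp in control and 2120 bp after SNDX-50469 (1.77%), and the widest treated peak, 8.51 kb, lay 217 kb downstream of the 5′ end. RUNX2 (10.8%) and FLT3 (11.6%), a receptor tyrosine kinase mutated in many AML cases, stood close to the median of all clusters. MYB had 298 kb and 62.9 kb (21.1%), with its widest treated peak, 11.3 kb, at 96.3 kb downstream of the 5′ end. ZEB2, a zinc finger factor of myeloid cells, stood highest with 129 kb and 36.0 kb (27.8%), and a treated peak of 14.3 kb covered its 5′ end. Against the strongest control peaks of equal total length, the 9 of these clusters with such cover had a median of 37.8%, against 53.6% over all 331. CDK6 had 18.8%, BCL2 23.0%, JMJD1C and REEP3 26.4%, MEF2C 36.9%, RUNX2 37.8%, FLT3 56.8%, BAZ2B 57.7%, MYB 75.5% and ZEB2 174%. PBX3 had no strong control cover.

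The blood transcription factors lie in 25 clusters outside chromosome 8, with a median treated share of 11.1% and 11 clusters under 10%, against 54.5% of all 347. They ranged from 1.26% to 27.8%. Against the strongest control peaks of equal total length, the 22 of these clusters with such cover had a median of 52.6%, against 53.6% over all 331. RUNX1 had 494 kb in control and 30.6 kb after SNDX-50469 (6.19%). Its strongest control peak, 420 kb upstream of the outermost 5′ end, held no treated base, and the widest treated peak, 8.21 kb, lay inside the gene at 158 kb from that end. IKZF1, the lymphoid and myeloid factor Ikaros, had 170 kb and 11.5 kb (6.74%), and RUNX3 had 117 kb and 8.36 kb (7.15%). KLF4, a monocyte factor, had 114 kb and 1.44 kb (1.26%), and its cluster had no strong control cover. No treated peak lay in its gene body, of which control itself covered only 655 bp.

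CEBPB, a C/EBP factor of monocytes, had 136 kb and 2.61 kb (1.92%), yet 1894 of the 2070 bp of its single-exon body that control covered were covered after SNDX-50469, so that most of the treated cover of this cluster lay at the gene. IRF8 showed the opposite arrangement. Its cluster had 326 kb and 73.6 kb (22.6%), but the gene body had 23448 bp in control and 206 bp after SNDX-50469. The widest treated peak there, 14.2 kb, lay 323 kb upstream of the 5′ end. GATA2, a factor of stem and progenitor cells, had 213 kb and 44.1 kb (20.7%), again with its widest treated peak, 17.7 kb, far upstream at 349 kb.

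CEBPA, the master factor of granulocytes, had 217 kb and 51.6 kb (23.8%), and its gene body kept 2467 of 2601 bp (94.8%). Its strongest control peak, 57.9 kb wide, covered the 5′ end. ETV6, an ETS repressor, had 253 kb and 69.2 kb (27.3%), LYL1 188 kb and 41.3 kb (22%), ELF1 108 kb and 28.5 kb (26.4%), MEF2D 137 kb and 26.8 kb (19.6%) and GFI1, a repressor of granulocyte development, 176 kb and 26.2 kb (14.9%). KLF2 had 337 kb and 40.8 kb (12.1%), TCF12 12.3%, LMO2 11.1%, NFE2 9.81%, FOXP1 9.77%, KLF13 9.15% and ETS2 8.49%. The shares of these 7 clusters lay within the quartiles of all clusters.

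**Figure D3:**
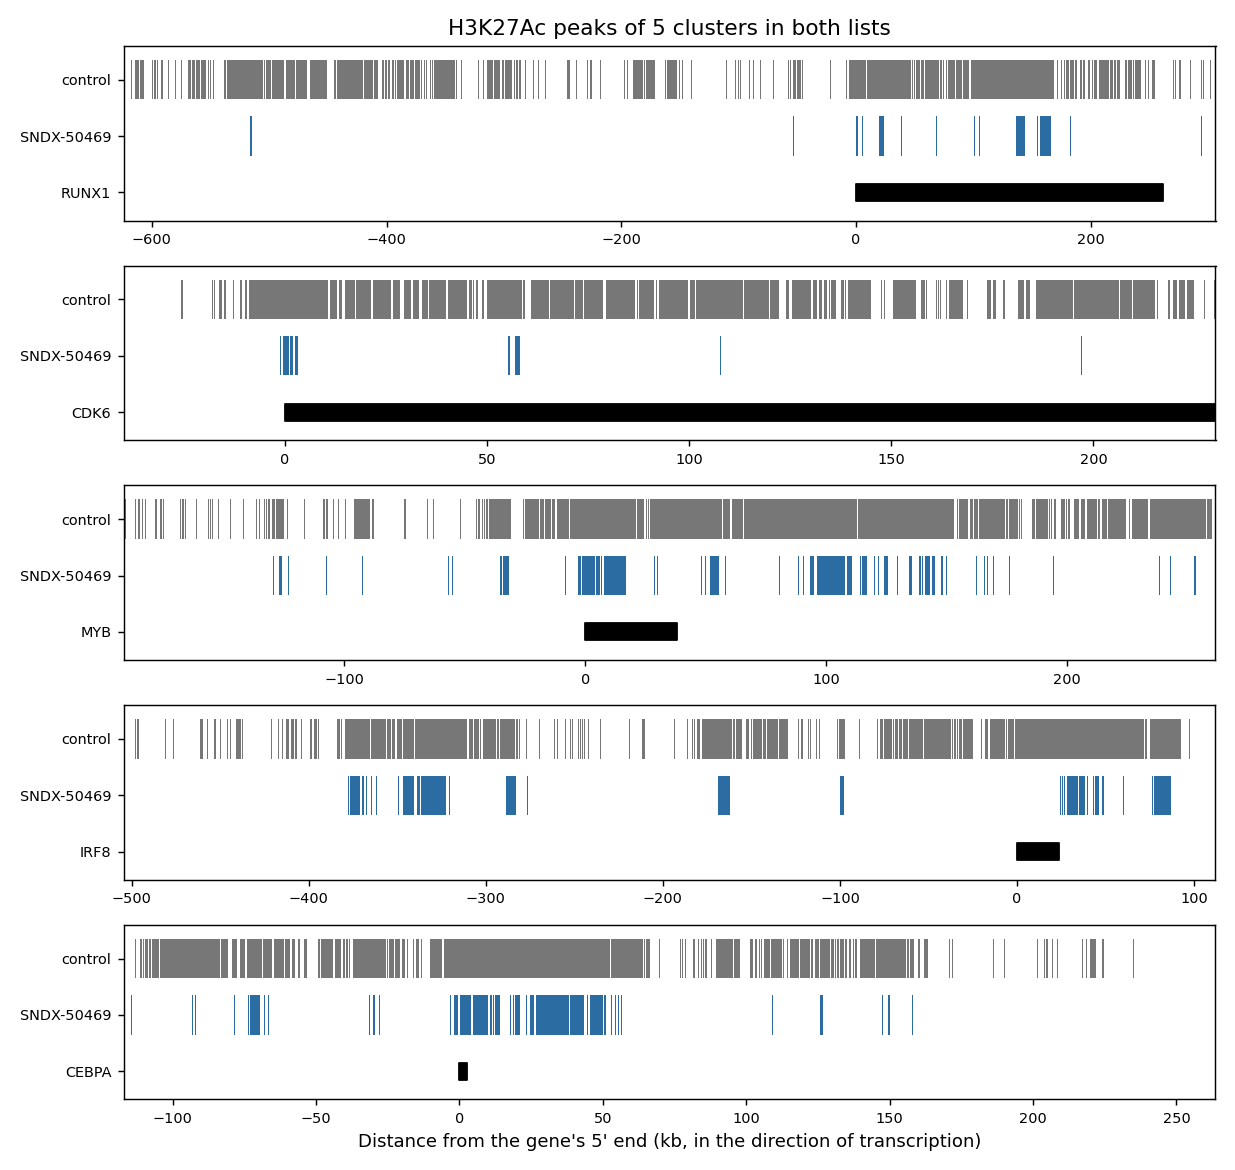
H3K27Ac peaks in the clusters of RUNX1, CDK6, MYB, IRF8 and CEBPA, in kb from the outermost 5′ end of the gene along its direction of transcription, with control peaks in grey, SNDX-50469 peaks in blue and the gene in black. Peaks are drawn to scale, and the narrowest are too thin to show. The widest treated peak of CDK6 stands over the 5′ end, and that of IRF8 lies 323 kb upstream.

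Receptors and signalling genes lie in 10 clusters outside chromosome 8, with a median treated share of 9.64%. DOCK2 had 171 kb in control and 2.34 kb after SNDX-50469 (1.37%), VAV3 2.31%, FGR, a Src family kinase, 4.75%, PIM1, a survival kinase, 5.39% and CSF1R, the macrophage growth factor receptor, 7.69%. The chemokine receptors CCR1 and CCR2 share a cluster with 258 kb and 32.0 kb (12.4%). In it the body of CCR2 had 6830 bp in control and 3857 bp after SNDX-50469, while that of CCR1 had 6603 bp and 0. CXCR4 had 280 kb and 35.2 kb (12.6%), IFNGR1, an interferon gamma receptor chain, 15.8% and VAV1 16.6%. Against the strongest control peaks of equal total length, the 10 clusters of this list had a median of 60.5%, against 53.6% over all 331.

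Chromatin regulators lie in 10 clusters outside chromosome 8, of which 8 were under 10%, against 54.5% of all 347 clusters, with a median of 8.36%. DOT1L was highest at 21.1%, and KDM2B followed at 11.5%. SMARCA4, the BRG1 ATPase of SWI/SNF, had 9.5%, AFF1, a fusion partner of MLL1 and subunit of the super elongation complex, 8.94%, NSD1 8.84%, ASXL1 5.70% and HDAC4 5.06%. Against the strongest control peaks of equal total length, however, the 10 clusters of chromatin regulators had a median of 56.7%, against 53.6% over all 331. Of the cell cycle and survival genes, BCL2L11, the BH3-only protein BIM, had the lowest share with 200 kb and 3.44 kb (1.72%), followed by CDK6 (2.84%) and BCL2 (8.87%). CDKN1A stood at 11.4%, CCND3, a D-type cyclin, at 14.3%, and RB1 and BMF, another BH3-only protein, both at 20.3%. The body of BMF kept 14789 of 20914 bp (70.7%), while that of RB1 kept 2667 of 37201 bp (7.17%). Among the chromatin regulators, the body of ASXL1 kept 1616 of 6243 bp (25.9%). Against the strongest control peaks of equal total length, the 6 cell cycle and survival clusters with such cover had a median of 55.3%.

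The few clusters that hold differentiation genes stood higher, but most genes of this list lie in no cluster. Outside chromosome 8 there were 3 such clusters, of MPO (39.1%), ELANE (31.6%) and CD93 (26.3%). Against the strongest control peaks of equal total length, these 3 had a median of 112%, from 64.0% to 117%. The cluster of ELANE spans 803 kb and 39 protein-coding genes. Of the list genes in no cluster, ITGAM, LYZ and CD33 were also cell type markers, counted over the gene and 5 kb on either side. On that count, which is wider than a gene body, ITGAM had 32322 bp in control and 0 after SNDX-50469, LYZ 7766 and 587 bp, and CD33 20288 and 798 bp. The other list genes in no cluster are not given. The cluster of MPO, the azurophil granule peroxidase, also holds MIR142HG, the host of a blood-specific microRNA. It had 118579 bp in control and 46364 bp after SNDX-50469, and its widest treated peak, 11.8 kb, covered the 5′ end of MPO. The body of MPO had 8802 bp in control and 4437 bp after SNDX-50469, and that of MIR142HG 1633 bp in both. In the cluster of CD93, a receptor of monocytes, a treated peak of 11.0 kb lay 36.7 kb upstream of the gene, while the gene body had 6965 bp and 306 bp. The cluster of MIR21 had 137 kb and 19.2 kb (14.0%).

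Over the 59 list genes in clusters outside chromosome 8, gene body and cluster could differ in either direction. The treated share of the gene body was under 10% of control in 26 and at least 25% in 17, and 5 had no treated base. The same shares over all gene bodies are not given here, so these counts describe the list genes only. The widest treated peak of the cluster covered the 5′ end of the gene in 13 of the 59 and lay at least 50 kb away in 35. Several list genes share a cluster, so these genes are not independent.

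**Figure D4:**
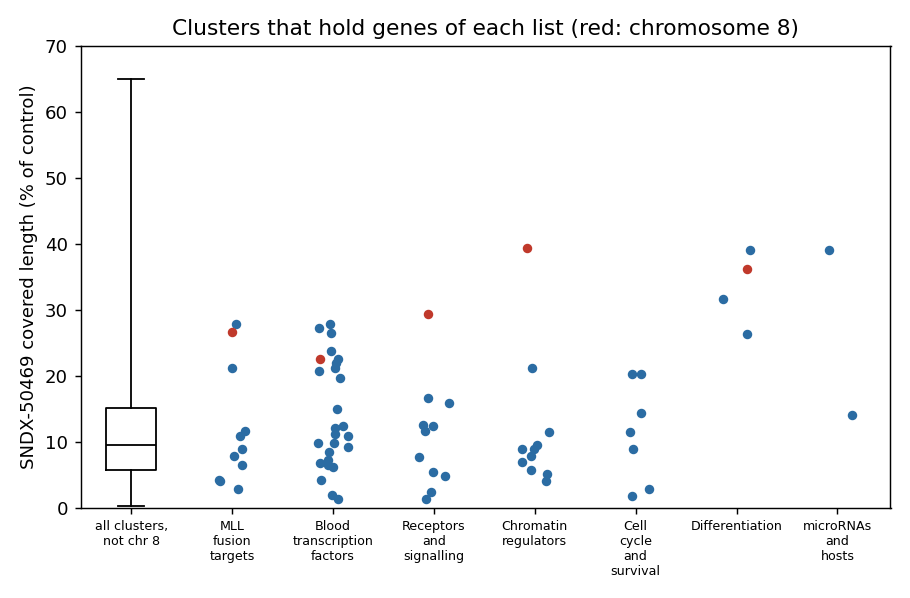
SNDX-50469 covered length as percent of control for the clusters that hold genes of each list, with 1 point per cluster and chromosome 8 in red. The box at the left gives the median, quartiles and full range of the 347 clusters outside chromosome 8, whose median is 9.44%. The differentiation clusters outside chromosome 8 lie between 26.3% and 39.1%, and those of blood transcription factors run from 1.26% to 27.8%.

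At the low end outside chromosome 8, treated cover was nearly absent. The cluster of ATP10A, a phospholipid flippase, had 112886 bp in control and 262 bp after SNDX-50469 (0.232%). That of RBM47, an RNA-binding protein, had 161821 bp and 732 bp (0.452%), and that of RASA1 and CCNH, a cyclin of the CDK-activating kinase, had 249331 bp and 1277 bp (0.512%). The next were OLIG1 and OLIG2, glial transcription factors, at 0.901% and SMYD3 at 0.915%. At the high end, the cluster of AHRR, the repressor of the aryl hydrocarbon receptor, had 184385 bp and 119837 bp (65.0%). It was followed by ZNF131 with 108319 bp and 47001 bp (43.4%), MPO (39.1%), DAD1 and ABHD4 with 186494 bp and 68987 bp (37%), and IRF2BP2, a corepressor of IRF2, with 286519 bp and 95269 bp (33.3%).

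The highest pair, AHRR and ZNF131, lie on the short arm of chromosome 5. All 7 clusters in the first 45 Mb of that chromosome had between 13.1% and 65.0%, with a median of 21.2%, while the other 22 clusters of chromosome 5 had between 0.512% and 15.7%, with a median of 6.29%. These ranges overlap. The split at 45 Mb was not planned, and the 7 clusters include AHRR and ZNF131, so their range and median are not independent of that pair. Of the SNDX-50469 cover, 8.74% lay outside control peaks in these 7 clusters and 1.89% in the other 22. By chromosome, the median of the 27 clusters of chromosome 19 was 16.5% and that of the 38 of chromosome 6 was 11.9%, against 5.45% for the 11 of chromosome 7 and 4.81% for the 7 of chromosome 18. The clusters of chromosome 19 had a median of 3.29 protein-coding 5′ ends per 100 kb of span, those of chromosome 6 had 0.685, those of chromosome 7 had 0.812, and those of chromosome 18 had 0.415. Whether DNA copy number or gene density has a part in this order was not tested.

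The treated share was higher near 5′ ends than over the rest of the clusters. Here 5′ ends are all those listed for any gene, protein-coding or not. Within 5 kb of such an end, the 347 clusters had 13.7 Mb of control cover. The treated cover there came to 20.6%, against 8.91% over the other 48.5 Mb. The parts near 5′ ends thus held 22.1% of the control cover and 39.6% of the treated cover. The share was higher near 5′ ends than elsewhere in 265 of the 344 clusters that have both parts. Per cluster, the medians were 16.6% and 7.21%. The regions of 50 to 100 kb had the same order, with 17.4% and 6.68% of the summed cover.

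**Figure D5:**
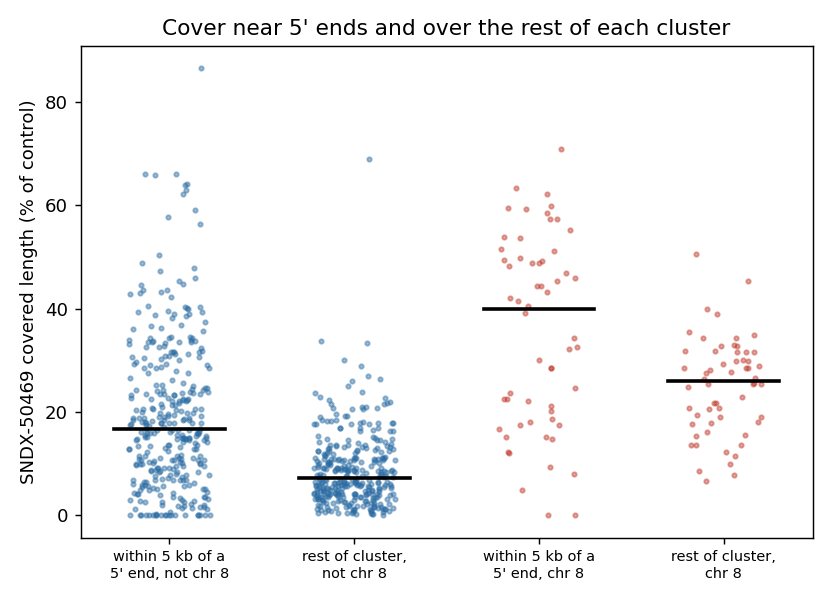
SNDX-50469 covered length as percent of control within 5 kb of the listed 5′ ends of any gene and over the rest of each cluster. Each point is 1 cluster, and bars stand at the medians. Outside chromosome 8 (blue, 344 clusters) the medians are 16.6% and 7.21%, and on chromosome 8 (red, 58 clusters) they are 39.9% and 26.0%.

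The treated share also moved with the strength of the control peaks. Among the 116 clusters with the lowest highest fold the median was 6.60%, in the middle 115 it was 9.11%, and in the upper 116 it was 14.6% (Spearman 0.49, Pearson 0.53, n = 347). For the share of control cover in peaks whose −log10 q reached 5, the medians were 6.61%, 9.22% and 15.1% (Spearman 0.51). For the density of 5′ ends they were 7.74%, 9.44% and 12.3% (Spearman 0.33). The widest control peak (0.16) and the covered share of the span (0.13) ordered the clusters less. All points come from the same pair of libraries.

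In 334 of the 347 clusters (96.3%), an SNDX-50469 peak overlapped the strongest control peak. This was so in 177 of 180 clusters where that peak lay within 5 kb of a 5′ end and in 157 of 167 where it lay elsewhere. In the regions of 50 to 100 kb it was so in 489 of 575 (85.0%). RUNX1 was among the 13 clusters without such overlap. Of the treated cover in the 347 clusters, 95.7% lay inside control peaks.

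Stitched by itself with the same gap, the SNDX-50469 list gave 18541 regions, of which 12 reached 100 kb of cover. All 12 overlap a control cluster. Of these, 11 lie on chromosome 8, and the other is that of AHRR. A control cluster outside chromosome 8 corresponded to a median of 6 separate treated regions, from 1 to 41, and the longest of them had a median cover of 7.82 kb. A treated region of 20 kb or more was present in 49 of the 347. With chromosome 8 included, of the 413 longest treated regions 258 (62.5%) overlap a control cluster, and 178 (43.1%) of the control clusters overlap one of them. Outside chromosome 8, 156 of 238 such treated regions (65.5%) overlap a control cluster. The same share over all 18541 treated regions was not computed. The 413 clusters hold 41.0% of the length of the SNDX-50469 list, and longer regions overlap a cluster more readily. These overlap counts are therefore a description only.

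On chromosome 8 the 66 clusters had 17.1 Mb of control cover and 4.90 Mb of treated cover, or 28.6%, with a median of 26.6% and a range from 7.68% to 50.7%. The treated cover was under 10% of control in 3 of 66 (4.55%), which are the clusters of DUSP4 (7.68%), LZTS1 (8.29%) and FBXO16 (9.93%). The highest were SLC45A4 (50.7%), PAG1 (45.9%) and GSDMC (43.5%). Of other clusters in the first 45 Mb, that of PPP2R2A had 11.3%, TACC1 13.8% and RHOBTB2 14.0%, while ADGRA2 had 23.2% and PRAG1 32.1%. The arms of chromosome 8 were not compared. The 35 regions of 50 to 100 kb on chromosome 8 were close to the clusters. Their summed share was 26.9% and their median 25.8%, and 2 (5.71%) were under 10%. The 66 clusters made up 7.65% of the length of the control list and 16.7% of that of the SNDX-50469 list. A larger part of the treated cover lay outside control peaks, 23.2% against 4.28% elsewhere. Against the strongest control peaks of equal total length, the 61 clusters with such cover had a median of 156%, and 46 of them were over 100%.

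The longest of all clusters, that of NCALD and GRHL2, had 1345494 bp and 451070 bp (33.5%). Of the list genes, 5 lie on chromosome 8. The cluster of MYC had 257 kb and 68.5 kb (26.7%), and a treated peak of 5.11 kb covered its 5′ end. CEBPD, a C/EBP factor, had 22.6% and LYN, a Src family kinase, 29.3%. LY96, the MD-2 partner of TLR4, had 36.2% and CHD7, a chromatin remodeller, 39.4%. Near 5′ ends the treated share was 38.4% and over the rest 27.4%, so that the order seen on the other chromosomes held there. The median density of 5′ ends was 0.667 per 100 kb, against 0.952 elsewhere. Whether the number of copies of chromosome 8, or of either of its arms, has a part in these values was not tested.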

How the data were processed

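H3K27Ac was measured by ChIPmentation in 1 control and 1 SNDX-50469 library of MOLM13 cells. The authors deposited 1 broad peak list per library, called separately. Of the deposited values, the ratio is the fold of a peak over its own library's background, and the −log10 p and −log10 q in the deposited lists refer to the same background. The deposited score follows from the −log10 q and was not used. The submitters' processing notes name Trim Galore 0.6.5, Bowtie2 2.3.4.2, Picard 2.9.0 and MACS2 2.1.2 with GRCh38, while the supplementary methods name TopHat2, hg38, diffReps and ROSE. The caller's options and the use of the input are not given in the sources used here. ROSE ranks by reads, so these clusters, made from peaks alone, are not the study's super enhancers.

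Python 3.11.15 with numpy 2.4.6, pandas 2.3.3, scipy 1.17.1 and matplotlib 3.10.9 was used. Peaks were stitched over gaps of up to 12.5 kb, and covered lengths were summed per region in each list, counting all SNDX-50469 peaks in the region. On simulated peaks, covered lengths were checked against a base-by-base count, and the gaps inside stitched regions against the limit set. Region boundaries were not compared with known ones. Genes came from RefSeq GRCh38.p14, the build of hg38. Strand was known for 19675 of 20056 protein-coding genes, in 3832 of them by symbol from GENCODE on GRCh37, whose coordinates were not used.

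Groups followed the sample labels. With 1 library per condition no test was made, and Wilson 95% intervals cover counting error only. The clusters, the gene lists and the choice of 10% as the low mark were made with earlier results of these data known. The genes named are those of the 30 longest clusters, the list genes in any cluster, the 3 highest and 3 lowest treated shares, and the 3 regions just under 100 kb, with up to 3 genes a cluster. OLIG1, OLIG2, SMYD3, DAD1, IRF2BP2 and CD44, and the clusters low or high against the strongest control peaks, were chosen after their values were seen. The split of chromosome 5 at 45 Mb was not planned either. ITGAM, LYZ and CD33, which lie in no cluster, were named from the cell type markers. The alternatives tried were other gaps and length limits, stricter, common and equal-length lists, positions covered in both lists, choice by fold times length, 5′ ends left out, and chromosome 8 left out.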

Additional observations from a re-analysis of the deposited data

How the results depend on the processing

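For all 413 clusters, chromosome 8 included, the median treated share was 10.9%, the summed share 15.2%, and 192 were under 10%. With a gap of 5 kb there were 264 clusters, a summed share of 16.1% and 109 under 10%. With 25 kb the median was 9.72% and the summed share 14.4%. From 50 kb of cover there were 1023 clusters, a median of 9.21%, a summed share of 13.6% and 560 under 10%, and from 150 kb 213 clusters, 16.3% summed and 95 under 10%. With a −log10 q of at least 2 there were 133 clusters, 13.4% summed and 62 under 10%. With control peaks down to the smallest SNDX-50469 −log10 p there were 92 clusters, a median of 20.6%, a summed share of 23.9% and 16 under 10%. Without chromosome 8 the median was 9.44% and the summed share 11.5%. Against the strongest control peaks of equal total length the median was 60.8%, the summed share 71.9% and 7 were under 10%, where 21 clusters without such cover were counted as not low. Positions covered in both lists gave 13.4% summed. Choice by fold times length shared 379 of the 413 clusters and gave a median of 11.9% and 15.8% summed. Away from 5′ ends the median was 8.06% and the summed share 13%.

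Chosen after seeing the data, the equal-length list without chromosome 8 gave a median of 54.7%, 53.2% summed and 7 under 10%. That median is over all 347 clusters, with the 16 without strong control cover ranked highest. Over the 331 with such cover it is the 53.6% given above. The common −log10 p without chromosome 8 gave 68 clusters, a median of 15.2%, 18.4% summed and 16 under 10%. The values thus rest most on how far the control list reaches. A lower control depth than was deposited could not be drawn, since the lists hold no reads. No paired analysis was possible because there are no replicates, and for the same reason none could be left out.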

Other observations

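Of the 413 clusters, 12 overlap no protein-coding gene, 7 outside chromosome 8 and 5 on it. The longest had 309253 bp of control cover on chromosome 3, 37.9 kb from SATB1, a chromatin organizer of blood cells, and the SNDX-50469 list covered 42869 bp of it (13.9%). The next, on chromosome 2, had 278987 bp and 24319 bp (8.72%). Another, on chromosome 5, had 222787 bp and 8575 bp (3.85%), and its nearest protein-coding gene, MAT2B, is 1480 kb away. On chromosome 20 a cluster 332 kb from BTBD3 had 7.29%. The other 3 outside chromosome 8 had between 5.61% and 7.66%, and the 5 on chromosome 8 between 23.1% and 32.7%.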
